A study of Triticum aestivum with 12 samples.

Results

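Common wheat carries 3 sub-genomes, A, B and D, so that many of its genes are present as a triad of homoeologues, and the split triads described here are those whose homoeologues responded unequally to vernalization in leaf. They were selected on the leaf libraries. A triad was taken when each of its homoeologues reached a group mean of at least 1 TPM (a level scaled to transcript length and to the library total) in some group, and when the highest minus the lowest homoeologue change in leaf was above 2. A change is the mean log2(TPM + 1) of the vernalized libraries minus that of the non-vernalized libraries of the same tissue, and the highest minus the lowest change of a triad is called its spread. Of the 1986 distinct identifier triplets that could be read, 1401 had every homoeologue expressed, and 83 of these (5.92%) were split triads with 239 distinct genes. The other 1318 expressed triplets are the comparison set. Every A homoeologue read was on chromosome 4A, so the values describe the triads of that chromosome only.

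The RNA-seq libraries came from the winter wheat cultivar AK58, with 2 libraries in each of 6 groups: vernalized leaf and leaf, vernalized axillary bud and axillary bud, and vernalized shoot apex and shoot apex. All plants were grown for 2 weeks with days of 22 °C, nights of 19 °C and 16 h of light. The non-vernalized groups were sampled then, whereas the vernalized groups spent 1 further month at 4 °C and 1 day in the greenhouse, so that cold and the greater age of these plants cannot be told apart. Leaves were collected directly, and buds and apices were dissected under a microscope. The libraries of a group are described as biological replicates, but whether they came from separate plants is not given in the sources used here, and p-values measure only the spread between these libraries. TPM keep no depth, no marker genes could be matched to the identifiers to check the tissues, and apart from TaSPL6, below, the names and roles of the genes were not at hand.

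Vernalization is the prolonged cold that winter cereals need before they flower. Afterwards the shoot apex can pass from forming leaves to forming an inflorescence, while axillary buds give rise to tillers and leaves are a source of flowering signals. Homoeologues descend from the same ancestral gene, entered hexaploid wheat with different diploid relatives, and often keep similar coding sequences while their regulatory regions diverge. A triad whose copies respond alike is called balanced, and a triad whose copies respond differently offers a comparison of related genes within the same nuclei.

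In leaf, the median spread of the split triads was 2.60 on the log2 scale (2.01 to 5.03), against a median of 0.53 in the other expressed triplets (up to 1.98). These values chose the triads and are given as a description without a test. The homoeologue farthest from the median homoeologue of its triad is said here to stand apart. The median larger gap between neighbouring changes was 1.96 and the median smaller gap 0.71, against 0.38 and 0.12 in the other triplets. A spread above 2 requires a larger gap above 1, so the sizes of these gaps follow in part from the rule. In 59 of the 83 triads only the larger gap exceeded 1. All 3 homoeologues were more than 1 apart in the remaining 24 triads. The B homoeologue stood apart in 35 triads (42.2%), the A homoeologue in 27 (32.5%) and the D homoeologue in 21 (25.3%), against 37.5%, 31.6% and 31.0% of the other triplets. The homoeologue apart lay above its partners in 40 triads and below them in 43.

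**Figure D1:**
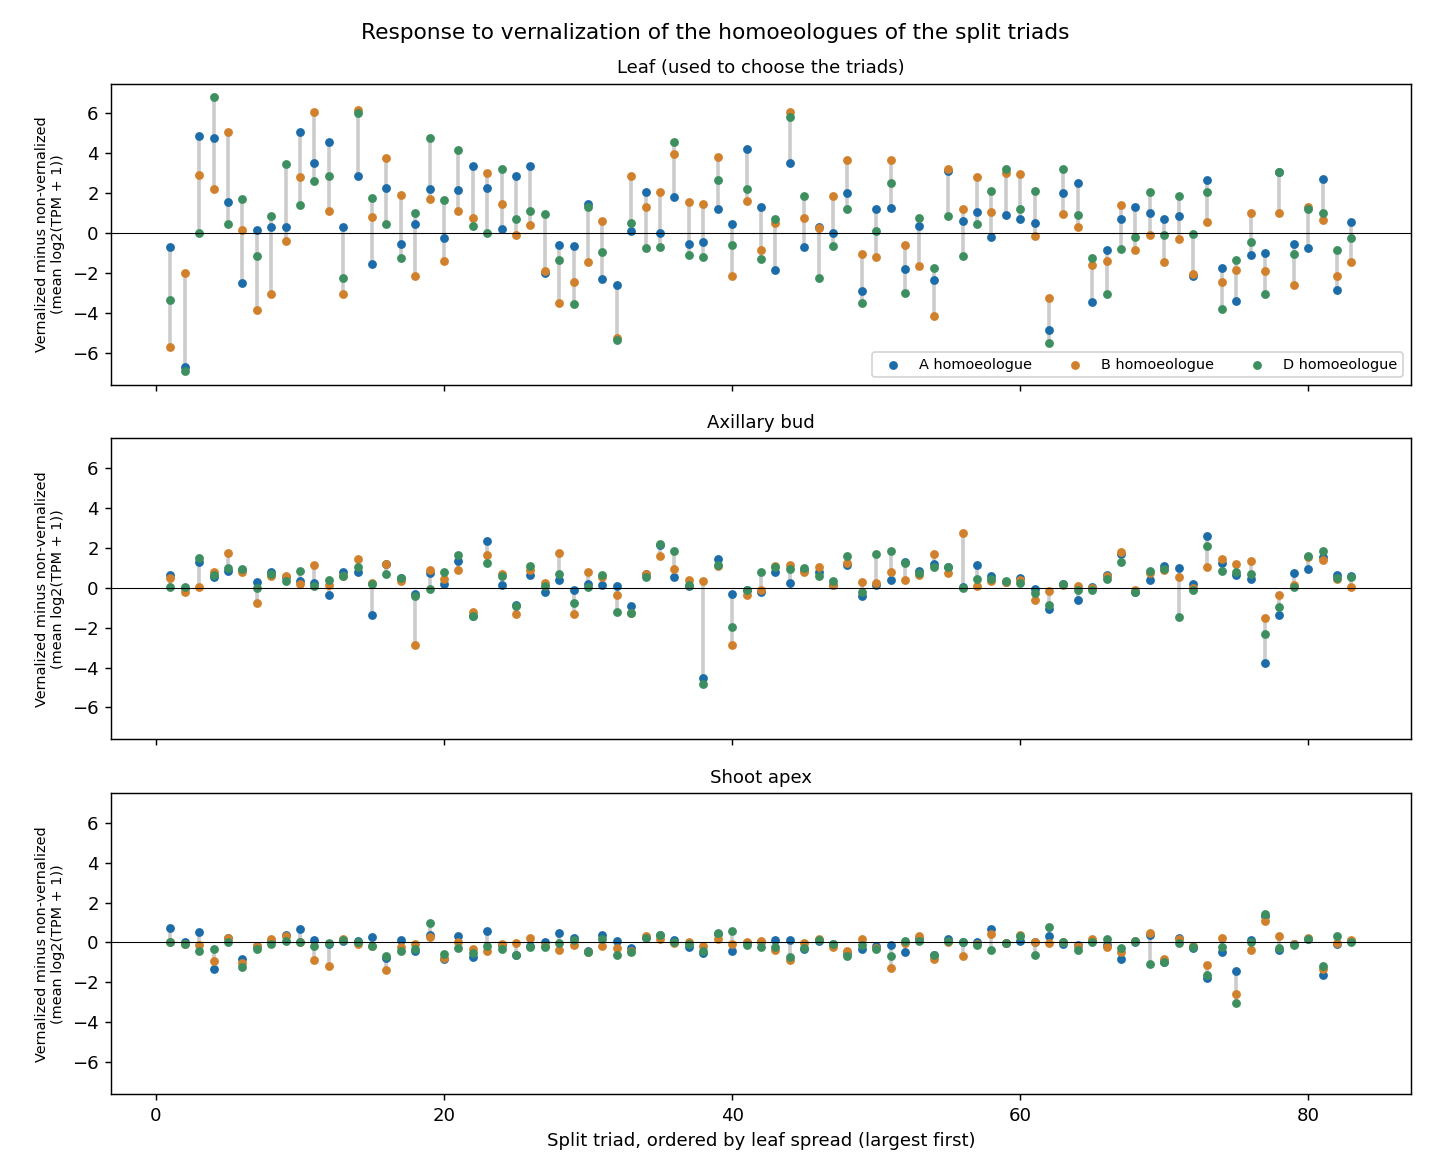
Change after vernalization, as mean log2(TPM + 1) of the 2 vernalized minus the 2 non-vernalized libraries, of the A, B and D homoeologues of the 83 split triads in leaf, axillary bud and shoot apex, with the triads in the same order of leaf spread in each panel and grey bars from the lowest to the highest homoeologue. The spreads that chose the triads in leaf (2.01 to 5.03) were mostly smaller in axillary bud (median 0.56) and shoot apex (median 0.37), apart from a few triads such as TraesCS4A02G280500 with 5.16 in axillary bud.

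The split was mostly a difference of extent or a response of some homoeologues only. In 13 triads a single homoeologue had a change above 1 and none fell by more than 1, in 17 triads a pair of homoeologues had, and in 13 triads all 3 had. Changes below -1 were found for a single homoeologue in 10 triads, for a pair in 12 and for all 3 in 8. Changes above 1 and below -1 met within the same triad in 10. The directions depended on how the libraries were scaled. The median change of all 60326 tested genes in leaf was -0.90 in TPM and -0.05 after median-of-ratios scaling, and with that scaling 6 triads held opposite changes and 35 of the 249 homoeologue changes turned their sign. The rule itself took 94 triads with that scaling, 71 of them among the 83. The median change of the summed TPM of a triad was 0.78 in split triads and -1.45 in the other triplets. These sums come from the leaf libraries that chose the triads and are a description only.

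The largest leaf spread, 5.03, belonged to the triad of TraesCS4A02G177500, TraesCS4B02G140200 and TraesCS4D02G134900. The A homoeologue was at 3726 and 4459 TPM in vernalized leaf, against 9124 and 4849 TPM in leaf, a change of -0.71 that became 0.81 after median-of-ratios scaling. The B homoeologue was at 3.10 and 18.5 TPM in vernalized leaf, against 702 and 325 TPM in leaf (change -5.74), and the D homoeologue at 19.7 and 18.2 TPM against 297 and 143 TPM (change -3.38). The leaf and vernalized leaf libraries did not overlap for any of the 3 copies, and the A copy, already the highest in leaf, held nearly all of the transcripts of the triad after vernalization.

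In the triad of TraesCS4A02G333500, TraesCS5B02G552100 and TraesCS5D02G538600, with a spread of 4.92, it was the level in leaf that differed. The A homoeologue was listed at 0 in both vernalized leaf libraries, against 113 and 94.4 TPM in leaf, and the D homoeologue was at 0.0753 TPM and 0, against 132 and 116 TPM. The B homoeologue was also listed at 0 in vernalized leaf, against 2.10 and 4.12 TPM in leaf. All 3 were thus at or near 0 after vernalization, and the B copy, low in leaf already, could fall by no more than its change of -1.99 on the log2(TPM + 1) scale.

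The triad of TraesCS4A02G199700, TraesCS4B02G115700 and TraesCS5D02G133400 (spread 4.89) started from like levels. TraesCS4A02G199700 was at 145 and 135 TPM in vernalized leaf, against 3.87 and 3.83 TPM in leaf, a change of 4.86. TraesCS4B02G115700 was at 37.8 and 38.2 TPM, against 4.92 and 3.68 TPM (change 2.89), and TraesCS5D02G133400 at 2.62 and 3.64 TPM, against 3.39 and 3.01 TPM (change -0.03). The copies, between 3.01 and 4.92 TPM in leaf, were thus apart from each other in vernalized leaf, and the libraries of the 2 groups overlapped for the chromosome 5D copy only.

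TraesCS5D02G525400 had the largest change above 0 among these leading triads. It was at 179 and 135 TPM in vernalized leaf, against 0.101 and 0.839 TPM in leaf (change 6.78), and its partner TraesCS4A02G346900 at 40.0 and 47.8 TPM, against 0.427 and 0.889 TPM (change 4.77). The B homoeologue TraesCS5B02G526500 was at 44.5 and 83.8 TPM, against 12.4 and 13.1 TPM (change 2.18). The B copy, the highest of the triad in leaf, was exceeded by the D copy in both vernalized leaf libraries. In the triad of TraesCS4A02G349400 the B homoeologue TraesCS5B02G523300 took the lead in a similar way, with 83.2 and 55.7 TPM in vernalized leaf, against 1.3 and 0.96 TPM in leaf (change 5.03). Its A and D partners had changes of 1.55 and 0.43.

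The leading B homoeologue came closer to its partners in the triad of TraesCS4A02G107900 (spread 4.04). TraesCS4B02G196700 was at 19.0 and 9.82 TPM in vernalized leaf, against 173 and 273 TPM in leaf, a change of -3.89. The D homoeologue TraesCS4D02G197000 was at 3.83 and 3.44 TPM, against 7.61 and 11.5 TPM (change -1.17), and TraesCS4A02G107900 at 2.19 and 1.54 TPM, against 1.65 and 1.49 TPM (change 0.15). In TPM only the A copy overlapped between the groups. With median-of-ratios scaling the A, B and D changes were 1.11, -2.42 and 0.13, so that of the D copy turned its sign.

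Opposite leaf changes were clearest in the triad of TraesCS4A02G270800, TraesCS4B02G043300 and TraesCS4D02G040800 (spread 4.18). The A homoeologue was at 0.0878 and 0.0768 TPM in vernalized leaf, against 4.13 and 6.26 TPM in leaf (change -2.50), while the D homoeologue was at 7.82 and 8.71 TPM, against 1.13 and 2.89 TPM (change 1.69). The B homoeologue was at 2.39 and 2.87 TPM, against 1.42 and 3.40 TPM, and its groups overlapped (change 0.15). The A and D changes kept their opposite signs after median-of-ratios scaling, at -1.86 and 2.86.

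The other triads named for opposite changes depended on the scaling. In the TraesCS4A02G253200 triad the changes of the A, B and D homoeologues were -1.55, 0.80 and 1.77 in TPM and -0.07, 2.03 and 3.0 after median-of-ratios scaling. In the TraesCS4A02G219500 triad, whose B member TraesCS5B02G119900 was at 2.57 and 2.04 TPM in vernalized leaf, against 8.55 and 7.51 TPM in leaf, they were 1.45, -1.45 and 1.31, and 2.67, -0.24 and 2.43 after scaling. In the TraesCS4A02G325800 triad they were -0.25, -1.40 and 1.62, and 0.80, -0.28 and 2.38 after scaling. The order of the homoeologues in these triads was the same on both scales, whereas the change of the lowest copy was no further below 0 than -0.28 after scaling.

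By the chromosomes in their identifiers, 60 of the split triads were of 4A, 4B and 4D, 13 of 4A, 5B and 5D, and 10 of a mixed kind with a chromosome 4 and a chromosome 5 partner. Part of the long arm of wheat chromosome 4A derives from chromosome 5A by translocation, which places homoeologues of such genes on 5B and 5D. Whether this accounts for the chromosome 5 partners counted here was not tested, and some mixed triads hold genes that also have chromosome 4 partners in the list. Split triads made up 5.14% of the 1168 expressed triplets of 4A, 4B and 4D, 7.69% of the 169 of 4A, 5B and 5D, and 15.6% of the 64 mixed ones. In 8 of the 10 mixed split triads the homoeologue apart was the one on chromosome 5. That count rests on the leaf changes that chose the triads. It was not made for the other mixed triplets, so it is a description only. A gene shared with another triplet of the list occurred in 18 split triads (21.7%) and in 9.71% of the other triplets, so that the members are not independent of each other.

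The genes paired with TraesCS4A02G193900 show how shared identifiers give several split triads. TraesCS4A02G193900 and its chromosome 4 partners TraesCS4B02G121300 and TraesCS4D02G119400 had leaf changes of 0.31, 0.22 and 0.84. The chromosome 5 genes listed as partners behaved differently, TraesCS5B02G145700 with 0.619 and 0.882 TPM in vernalized leaf, against 10.1 and 18.5 TPM in leaf (change -3.07), and TraesCS5D02G145500 with 4.51 and 4.62 TPM, against 23.5 and 27.4 TPM (change -2.24). The 3 split triads of TraesCS4A02G193900 each combine it with a chromosome 5 gene, and in TPM the chromosome 4 genes changed by less than 1. After median-of-ratios scaling the A, 4B and 4D genes had changes of 1.67, 1.60 and 2.25, and the 5B and 5D genes of -2.02 and -0.88, in the same order.

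Consecutive A identifiers were found in 3 pairs of split triads, and in 1 of these pairs the same homoeologue stood apart on the same side. Such pairs were not counted over all expressed triplets, so the count has no background beside it. TraesCS4A02G066200 was at 2.71 and 2.04 TPM in vernalized leaf, against 0.872 and 0.703 TPM in leaf, and its D partner TraesCS4D02G243100 at 19.7 and 14.1 TPM, against 0.545 and 1.40 TPM. The next gene, TraesCS4A02G066300, was at 7.62 and 6.96 TPM in vernalized leaf, against 0 and 0.372 TPM in leaf, and its B partner TraesCS4B02G243600 at 79.0 and 62.1 TPM, against 0 in both. The remaining copies, TraesCS4B02G243500 and TraesCS4D02G243200, changed by 3.0 and 5.99, and the 4A copies were the lowest after vernalization.

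The threshold was not a gap in the data. Just inside it were the triads of TraesCS4A02G236100 and TraesCS4A02G328900, with spreads of 2.02 and 2.01, and just outside it the triads of TraesCS4A02G359200 and of TraesCS4A02G199700 with TraesCS4D02G113300, with spreads of 1.98 and 1.97. TraesCS4A02G236100 was at 0.904 and 0.698 TPM in vernalized leaf, against 14.1 and 10.4 TPM in leaf (change -2.87), and its partner TraesCS5D02G082800 at 4.23 and 5.65 TPM, against 10.4 and 8.98 TPM (change -0.85). Their changes were -1.82 and 0.47 with median-of-ratios scaling, so that of TraesCS5D02G082800 turned its sign. TraesCS4A02G328900 was at 6.93 and 6.38 TPM in vernalized leaf, against 3.97 and 4.53 TPM in leaf (change 0.55), and TraesCS5B02G543300 at 0.219 and 0.327 TPM, against 1.93 and 3.21 TPM (change -1.46). Without a single leaf or vernalized leaf library, whichever it was, the rule found between 82 and 92 split triads.

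The leaf values of the next measures follow from the choice of the triads by their leaf changes and are a description only. Among the 62 split triads whose highest homoeologue reached 1 TPM in vernalized leaf and in leaf, the leading homoeologue, the same in both libraries of a group, differed between the groups in 27 (43.5%), against 21.0% of the other triplets. In axillary bud it differed in 5 of 66 (7.58%) against 10.3% of the others, and in shoot apex in 3 of 68 (4.41%) against 4.66%. Within a triad, the median distance between the shares of the 3 homoeologues in the vernalized and non-vernalized group was 38.1 percentage points for leaf, against 10.6 in the other triplets. It was 7.97 points for axillary bud, against 4.51, and 5.95 points for shoot apex, against 3.35.

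**Figure D2:**
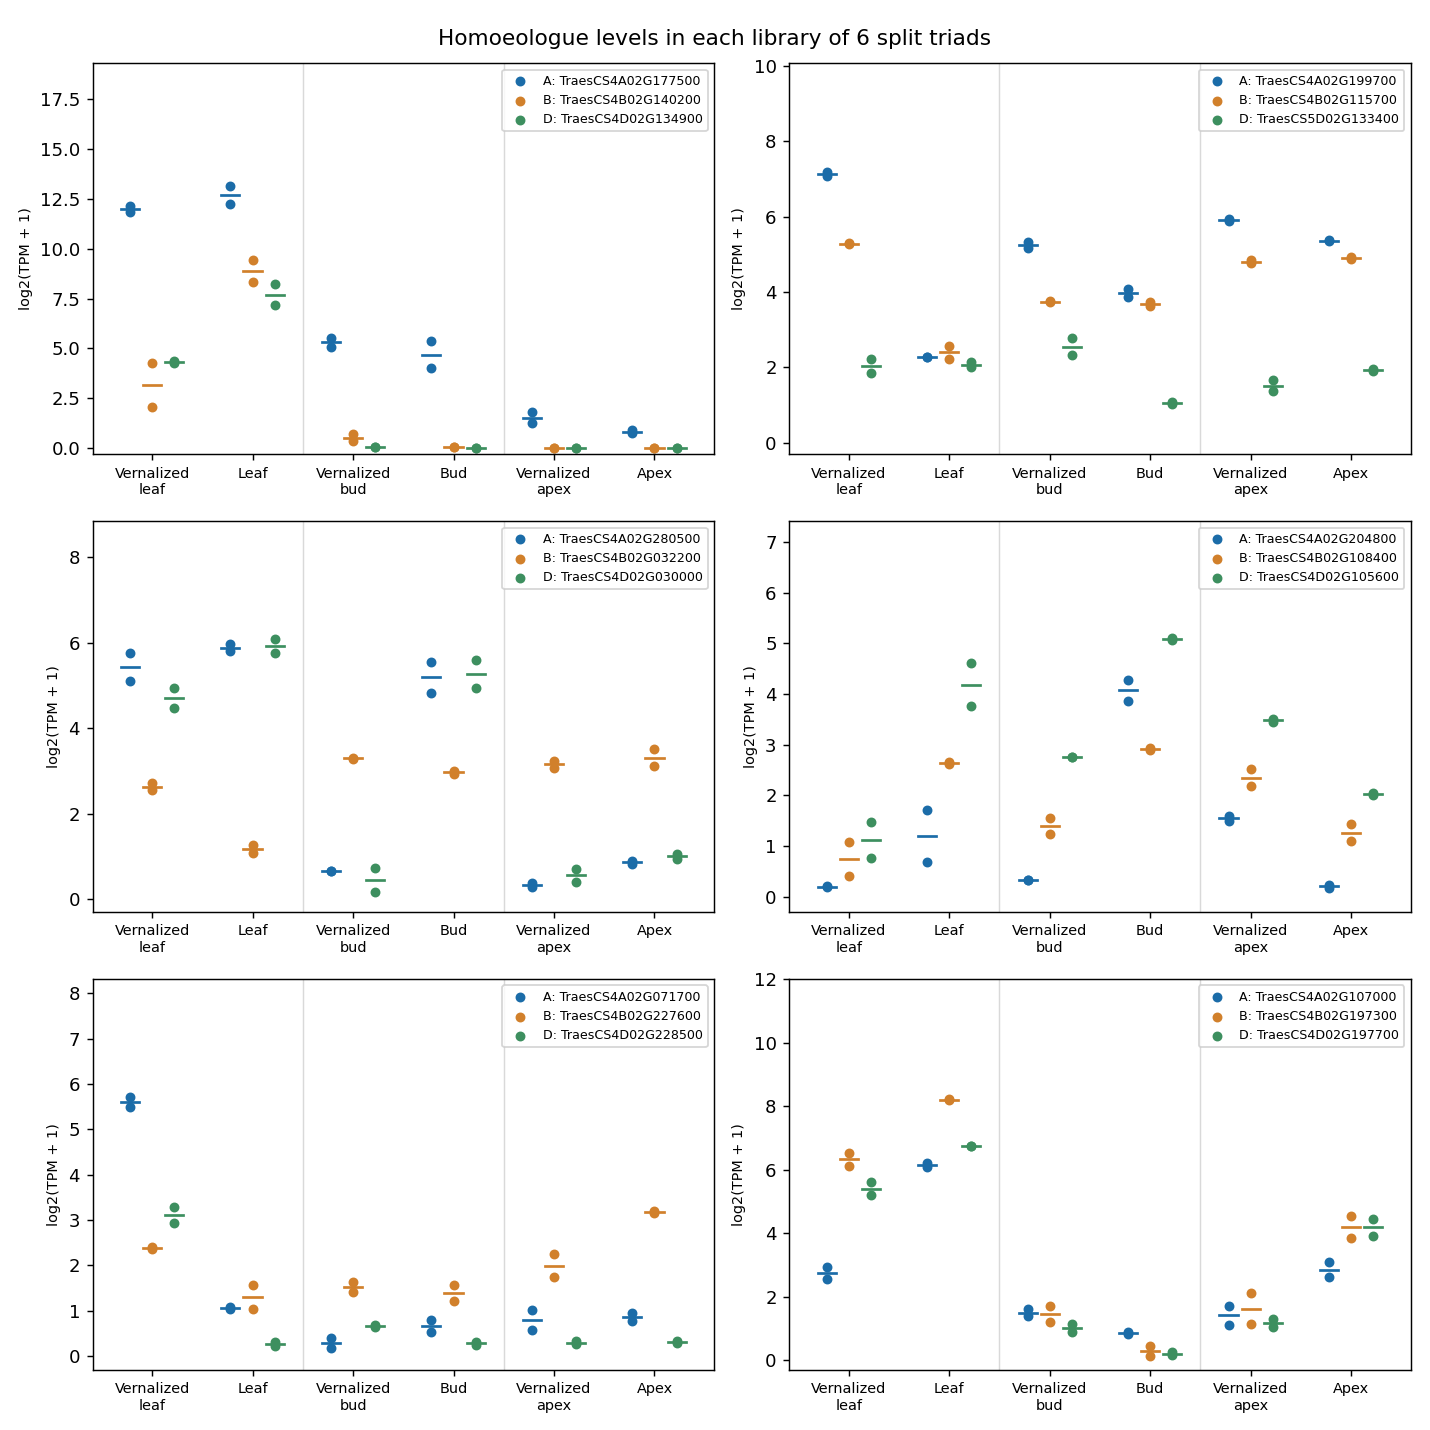
Level of each homoeologue, as log2(TPM + 1), in every library of 6 split triads, with points for the 2 libraries of a group, short lines for their mean, and each vernalized group left of its non-vernalized group. TraesCS4A02G199700 and its B partner separate from the D partner in vernalized leaf, the A and D copies of the TraesCS4A02G280500 triad are low in vernalized axillary bud while the B copy stays near 8.8 TPM, and the 3 copies of the TraesCS4A02G204800 triad change together in the same direction within each tissue.

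The axillary bud and shoot apex libraries took no part in the choice by leaf change, although they could let a triad pass the filter of 1 TPM. The median spread of the split triads was 0.56 in axillary bud and 0.37 in shoot apex, against 0.28 and 0.19 in the other triplets. A spread above 1 was found in 21 split triads (25.3%) in axillary bud, against 4.86% of the others, and in 8 (9.64%) in shoot apex, against 2.12%. The homoeologues of split triads were also more often low there. Of the 249 homoeologue entries, 20.9% were under 1 TPM in vernalized axillary bud and 27.7% in axillary bud, against 7.59% and 14.0% in the other triplets, and 28.5% were under 1 TPM in vernalized shoot apex and 24.9% in shoot apex, against 16.1% and 13.5%. Each homoeologue reached 5 TPM in some group in 52 of the 83 split triads, and 11 of these had the unequal response in axillary bud described after the levels. In addition, 11 split triads had a homoeologue under 1 TPM in both leaf groups, so that they passed the filter through bud or apex. Among the 72 others, in a count added after seeing the data, 15 had an unequal response in axillary bud and 3 in shoot apex, 35 and 40 had unequal levels, and 17 a response that differed between these tissues, by the tests given below for all 83. The shares of all triplets under these narrower filters are not given here, so the counts under them have no background beside them.

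**Figure D3:**
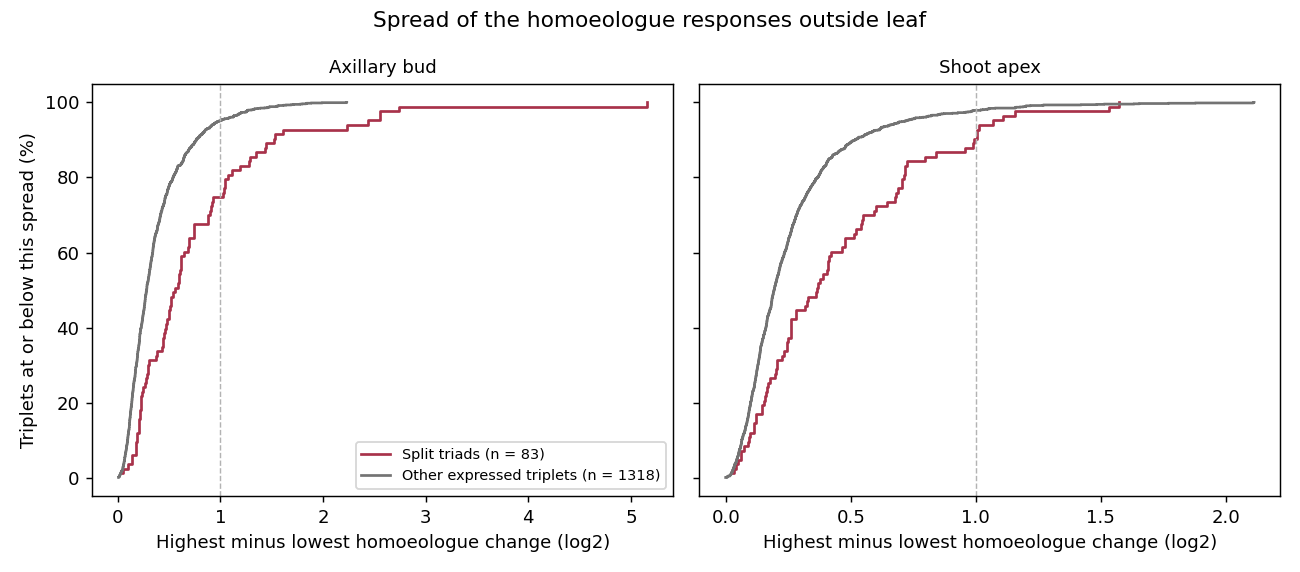
Cumulative percentage of the 83 split triads (red) and of the 1318 other expressed triplets (grey) by the highest minus lowest homoeologue change in axillary bud and shoot apex, on the log2 scale, with a dashed line at 1. The curve of the split triads lies to the right in both tissues, with 25.3% against 4.86% of triplets above 1 in axillary bud and 9.64% against 2.12% in shoot apex.

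Unequal mean levels of homoeologues were common in split triads in bud and apex, and levels were not tested in each treatment on its own. Averaged over vernalized and non-vernalized libraries, a pair of homoeologues differed by more than 2-fold at an adjusted p-value under 0.05 in limma in 41 split triads (49.4%) in axillary bud, where 22.0% of all 1401 triplets were called, and in 46 (55.4%) in shoot apex, where 21.7% were. In 34 split triads (41.0%) the levels were unequal in both tissues, where 16.4% of all triplets were. In non-vernalized axillary bud the homoeologue with the lowest leaf change, here the leaf-low homoeologue, was the highest of its triad in 42 split triads (50.6%) and the one with the highest leaf change, the leaf-high homoeologue, in 20 (24.1%), against 43.5% and 26.6% of the other triplets. In non-vernalized shoot apex these counts were 32 (38.6%) and 30 (36.1%), against 39.9% and 27.2%.

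In axillary bud, 17 of the 83 split triads (20.5%) had an unequal response to vernalization, defined as a pair of homoeologues whose changes differed by more than 1 at an adjusted p-value under 0.05, where 5.42% of all triplets were called. In shoot apex 3 split triads (3.61%) were called, where 2.00% of all triplets were. No split triad was called in both tissues, and 63 were called in neither. With only 3 calls in shoot apex the lack of overlap is not read as a result, and the overlap over all triplets was not counted. The median response of the leaf-high minus the leaf-low homoeologue was 0.15 in axillary bud and above 0 in 51 of the 83 split triads (61.4%), against a median of 0.02 and 54.0% in the other triplets. In shoot apex the median was -0.09 with 31 of 83 above 0 (37.3%), against 0.00 and 50.6%.

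By the same test on this pair alone, the leaf-high homoeologue exceeded the leaf-low homoeologue in response in axillary bud in 9 split triads (background 1.78%) and fell short of it in 4 (background 1.21%). Most split triads thus had no called difference of this pair in axillary bud, and those called included both the direction seen in leaf and its opposite.

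The TraesCS4A02G280500 triad had the largest unequal response of any triplet in axillary bud. TraesCS4A02G280500 was at 0.571 and 0.587 TPM in vernalized axillary bud, against 46.0 and 27.3 TPM in axillary bud, and fell by 4.53 (adjusted p = 5.33e-07). TraesCS4D02G030000 was at 0.116 and 0.647 TPM, against 47.5 and 29.5 TPM, and fell by 4.83 (adjusted p = 4.5e-07). The B homoeologue TraesCS4B02G032200 was at 8.74 and 8.80 TPM, against 6.60 and 6.96 TPM, with a change of 0.33. The A and D copies, the highest of the triad in axillary bud, were under 1 TPM in vernalized bud, and the leaf-high B copy exceeded the leaf-low D copy in response by 5.16 (SE 0.30, adjusted p = 1.05e-05). In shoot apex the A and D copies were under 1.1 TPM in every library, and the B copy was at 7.33 and 8.43 TPM in vernalized apex, against 7.58 and 10.4 TPM in apex. In leaf the B copy was the lowest, at 5.57 and 4.82 TPM in vernalized leaf, against 1.11 and 1.41 TPM in leaf.

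TraesCS5B02G527100 carried the split of its triad in axillary bud by itself. It was at 246 and 239 TPM in vernalized axillary bud, against 47.8 and 26.2 TPM in axillary bud, and rose by 2.74 (adjusted p = 0.000128). Its partners TraesCS4A02G345700 and TraesCS5D02G526800 were at 0 or at most 0.0187 TPM in every bud library. In leaf no copy exceeded 10.6 TPM, with TraesCS5B02G527100 at 2.45 and 2.16 TPM in vernalized leaf, against 0.0750 and 0.897 TPM in leaf. The difference of the leaf-high and leaf-low homoeologue in bud was 2.74 (SE 0.26, adjusted p = 0.000213).

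TraesCS5B02G146500 and TraesCS5D02G144800 fell in axillary bud while their chromosome 4A partner was not called. TraesCS5B02G146500 was at 2.73 and 2.68 TPM in vernalized axillary bud, against 21.7 and 30.8 TPM in axillary bud (change -2.86, adjusted p = 9.04e-05). TraesCS5D02G144800 was at 6.29 and 7.23 TPM, against 27.7 and 32.2 TPM (change -2.00, adjusted p = 0.000115), and TraesCS4A02G194800 at 2.20 and 1.98 TPM, against 2.56 and 3.08 TPM (change -0.30). TraesCS5B02G146500 also had the lowest change of its triads in leaf, with 9.84 and 8.87 TPM in vernalized leaf, against 46.2 and 44.7 TPM in leaf. The leaf-high minus leaf-low difference in bud was 2.55 (SE 0.30, adjusted p = 0.000704) with the 5D partner and 2.41 (SE 0.21, adjusted p = 0.000213) in the triplet that lists TraesCS4D02G118500 instead, and these 2 triplets share their A and B genes.

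The 4 triads with the opposite direction in axillary bud were led by the triad of TraesCS4A02G109000, TraesCS4B02G195200 and TraesCS4D02G195800. The leaf-high D homoeologue was at 0.207 and 0.0929 TPM in vernalized axillary bud, against 2.24 and 2.16 TPM in axillary bud, and fell by 1.48 (adjusted p = 0.000113). In leaf the same copy was at 21.5 and 22.5 TPM in vernalized leaf, against 6.02 and 4.96 TPM in leaf. The A and B copies had changes of 0.96 and 0.51 in bud, and the difference of the leaf-high D and leaf-low B copies was -1.99 (SE 0.21, adjusted p = 0.000309).

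In the triad of TraesCS4A02G204800, TraesCS4B02G108400 and TraesCS4D02G105600 all 3 homoeologues fell in axillary bud and rose in shoot apex. TraesCS4A02G204800 was at 0.261 and 0.251 TPM in vernalized axillary bud, against 18.5 and 13.6 TPM in axillary bud, and at 2.03 and 1.82 TPM in vernalized shoot apex, against 0.179 and 0.130 TPM in shoot apex. TraesCS4D02G105600 was at 5.78 and 5.80 TPM in vernalized axillary bud, against 33.4 and 32.6 TPM in axillary bud, and at 9.97 and 10.3 TPM in vernalized shoot apex, against 3.15 and 2.99 TPM in shoot apex. The changes of the A, B and D copies were -3.75, -1.52 and -2.32 in bud (adjusted p at most 0.00104) and 1.34, 1.09 and 1.45 in apex (adjusted p at most 0.0323). The vernalized and non-vernalized libraries did not overlap in either tissue. These were the only 3 genes of split triads called higher in vernalized shoot apex. The leaf-high A minus leaf-low D difference in bud was -1.42 (SE 0.21, adjusted p = 0.00272).

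TraesCS4B02G096000 rose more than its A partner in axillary bud and was listed at 0 in both vernalized leaf libraries, as were its A and D partners. It was at 55.4 and 58.0 TPM in vernalized axillary bud, against 14.4 and 18.6 TPM in axillary bud (change 1.73, adjusted p = 0.00139), while TraesCS4A02G217300 was at 17.9 and 16.1 TPM, against 9.69 and 16.8 TPM (change 0.38). The difference of the leaf-high A and the leaf-low B copies was -1.35 (SE 0.15, adjusted p = 0.000421). With every copy at 0 in vernalized leaf, the leaf-high and leaf-low copies of this triad are set by their levels in leaf alone. In the TraesCS4A02G234700 triad with TraesCS5D02G080700 the difference was -1.03 (SE 0.16, adjusted p = 0.00389), close to the limit of 1, and fell short of it at -0.81 and -0.92 without axillary bud replicate 2 and vernalized axillary bud replicate 1, and at -0.88 after median-of-ratios scaling.

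In shoot apex the leaf-high homoeologue exceeded the leaf-low homoeologue in response in 1 split triad (background 0.428%) and fell short of it in 2 (background 0.642%). The first was the triad of TraesCS4A02G071700, TraesCS4B02G227600 and TraesCS4D02G228500. TraesCS4B02G227600 was at 3.77 and 2.33 TPM in vernalized shoot apex, against 8.13 and 7.89 TPM in shoot apex, and fell by 1.18 (adjusted p = 0.019), while TraesCS4A02G071700 was at 1.02 and 0.483 TPM, against 0.924 and 0.710 TPM. The difference was 1.11 (SE 0.20, adjusted p = 0.0176), and without each of the 4 shoot apex libraries in turn it was 1.04 to 1.17 and not called. In leaf TraesCS4A02G071700 was at 51.8 and 44 TPM in vernalized leaf, against 1.13 and 1.05 TPM in leaf, and TraesCS4B02G227600 at 4.18 and 4.27 TPM, against 1.07 and 1.95 TPM.

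The opposite direction in shoot apex was found in a pair of neighbouring triads. In the triad of TraesCS4A02G107000, TraesCS4B02G197300 and TraesCS4D02G197700 all 3 homoeologues fell in shoot apex, by 1.45, 2.57 and 3.02 (adjusted p at most 0.00729). TraesCS4D02G197700 was at 1.44 and 1.08 TPM in vernalized shoot apex, against 14.2 and 20.8 TPM in shoot apex, and TraesCS4A02G107000 at 1.14 and 2.30 TPM, against 5.16 and 7.49 TPM. The leaf-high D copy thus fell more than the leaf-low A copy, with a difference of -1.57 (SE 0.28, adjusted p = 0.0176), which was not called without vernalized shoot apex replicate 2 (-1.15) or without either shoot apex replicate. In leaf TraesCS4B02G197300 was at 91.5 and 68.5 TPM in vernalized leaf, against 290.0 and 297 TPM in leaf.

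In the adjoining triad of TraesCS4A02G106900, TraesCS4B02G197400 and TraesCS4D02G197900, the leaf-high D homoeologue was at 0.689 and 0.662 TPM in vernalized shoot apex, against 3.11 and 2.00 TPM in shoot apex (change -1.07, adjusted p = 0.0174). In leaf the same gene was at 11.9 and 7.95 TPM in vernalized leaf, against 1.51 and 1.64 TPM in leaf. The B homoeologue TraesCS4B02G197400 was at 12.7 and 8.48 TPM in vernalized shoot apex, against 8.87 and 5.89 TPM in shoot apex (change 0.47). The D minus B difference was -1.53 (SE 0.19, adjusted p = 0.00448), and the libraries of the D copy did not overlap in either tissue.

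The response of the leaf pair differed between axillary bud and shoot apex in 19 split triads (22.9%), by an interaction term above 1 at an adjusted p-value under 0.05, where 4.50% of all triplets were called. The difference was 4.86 in the TraesCS4A02G280500 triad and 3.42 in the TraesCS4A02G345700 triad, both higher in axillary bud, and -2.19 in the TraesCS4A02G217300 triad, higher in shoot apex. The triads of TraesCS4A02G109000, with -1.78, and TraesCS4A02G071700, with -1.60, were also higher in shoot apex.

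**Figure D4:**
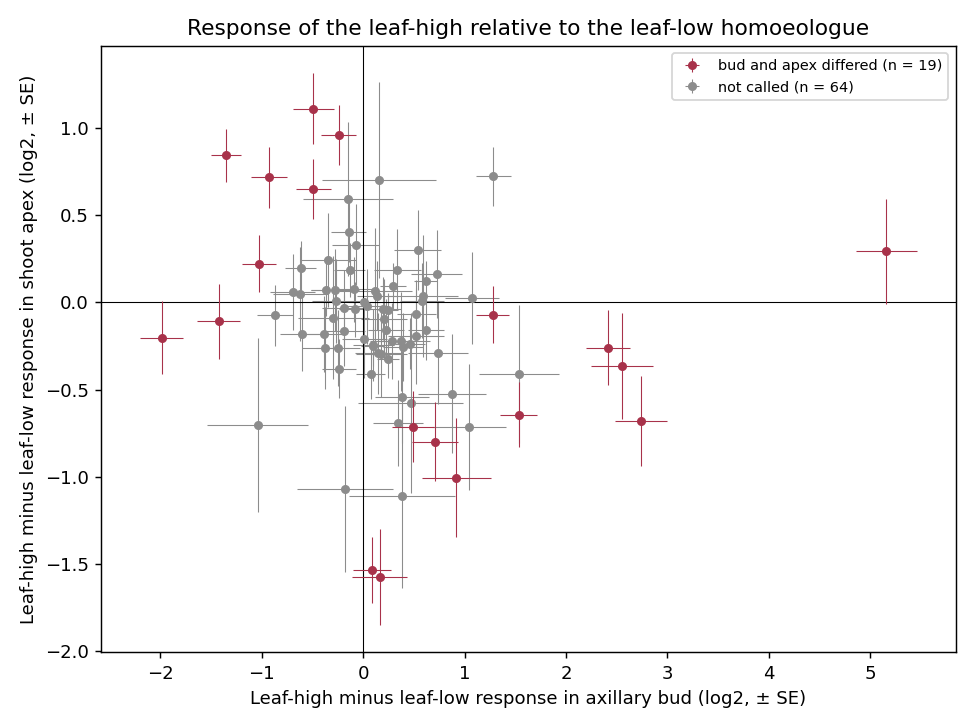
Response to vernalization of the leaf-high minus the leaf-low homoeologue of the 83 split triads in axillary bud (horizontal) and shoot apex (vertical), on the log2 scale with standard errors, with the 19 triads whose response differed between the tissues in red and the other 64 in grey. Most points lie within 1 of 0 on both axes, the TraesCS4A02G280500 triad lies farthest right at 5.16, and both signs occur in each tissue.

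Gene by gene, a change on the log2(TPM + 1) scale was called at a size above 1 and an unadjusted p-value under 0.01 in limma. In vernalized axillary bud 48 of the 239 genes of split triads (20.1%) were called higher, where 11.4% of all tested genes were. A further 19 (7.95%) were called lower, where 3.40% of all tested genes were. After median-of-ratios scaling these counts were 25 (10.6%) and 23 (9.75%), where 6.29% and 5.33% of all genes were called, and the median change of all genes in axillary bud was 0.06 with that scaling and 0.29 without it. In vernalized shoot apex 3 genes (1.26%) were called higher, where 1.12% of all genes were, and 16 (6.69%) lower, where 2.44% were. All 3 homoeologues were called higher in bud in 7 split triads (8.43%) and lower in 2 (2.41%), against 5.92% and 2.43% of the other triplets. Some but not all were called higher in 22 (26.5%) and lower in 11 (13.3%), against 11% and 2.50%, and none was called in 41 (49.4%), against 78.1%. In shoot apex 73 split triads (88.0%) had no called homoeologue, against 95.8%. No triad, split or other, had homoeologues called in opposite directions in axillary bud or in shoot apex.

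The leading leaf triads show how differently the tissues responded. TraesCS5D02G133400, whose leaf change was -0.03 in TPM and 1.13 after median-of-ratios scaling, was at 4.02 and 5.85 TPM in vernalized axillary bud, against 1.11 and 1.03 TPM in axillary bud (change 1.5, adjusted p = 0.000489), and its partner TraesCS4A02G199700 was at 35.1 and 39.0 TPM, against 13.7 and 16.0 TPM (change 1.26, adjusted p = 0.000811). TraesCS4B02G115700 was at 12.5 and 12.2 TPM, against 11.3 and 12.4 TPM (change 0.06). In bud it was therefore the B copy whose libraries overlapped. The copies of the TraesCS4A02G270800 triad, opposite in leaf, were close to each other in bud and apex, with changes of 0.88, 0.77 and 0.96 in bud and -0.82, -1.04 and -1.23 in apex for A, B and D. TraesCS4A02G253200 had a leaf change of -1.55 in TPM and -0.07 after median-of-ratios scaling. In axillary bud it fell, at 0.768 and 0.911 TPM in vernalized bud, against 4.58 and 2.95 TPM in bud (change -1.35, adjusted p = 0.000815).

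The triplets read include a single triad of SPL genes, which encode SQUAMOSA promoter-binding-like transcription factors with roles in phase change and inflorescence development. It is TaSPL6 (TraesCS4A02G359500, TraesCS5B02G512800 and TraesCS5D02G513300), and it was not a split triad. TraesCS4A02G359500 was at 6.94 and 6.95 TPM in vernalized leaf, against 29.2 and 27.9 TPM in leaf, TraesCS5B02G512800 at 7.04 and 6.62 TPM against 25.9 and 25.9 TPM, and TraesCS5D02G513300 at 7.84 and 8.16 TPM against 28.4 and 26.5 TPM. The changes of -1.89, -1.78 and -1.66 gave a spread of 0.23, and all 3 copies were about as abundant as each other in both groups.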

How the data were processed

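Reads were trimmed with fastp 0.21.0, aligned with hisat2 to IWGSC RefSeq v1.0 and sorted with SAMtools 1.3.1 by the authors, who calculated TPM with TPMCalculator. The TPM values, as deposited by the authors for each library, were the starting point here (107891 genes, 12 libraries, 0 pairs identical). How reads that fit several homoeologues were assigned is not given in the sources used here, so that a split of near-identical copies is uncertain. TPM keep neither counts nor depth, so the depth is unknown and no counting interval was given.

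Triplets were the identifier columns of the part of the authors' triad list at hand (1998 entries, 1986 distinct); the classes were not used. Changes were on log2(TPM + 1), which understates those of low genes. In bud and apex, differences between homoeologues were tested with limma 3.58.1 (R 4.3.3) on all 12 libraries with a trend and Benjamini-Hochberg adjustment over all 1401 triplets and their pairs. Genes with a group mean above 1 TPM (60326) were tested likewise. The test was checked on simulated data.

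The members, lists and rules were chosen with earlier results of these data known. Named triads were the 8 with the largest leaf spread, the 4 called with the largest difference of the leaf-high and leaf-low homoeologue in each direction in bud and the 2 in apex, the 4 with the largest opposite changes, those at the threshold and any with an SPL gene, with TraesCS4A02G066200, TraesCS4A02G066300 and the TraesCS4A02G193900 partners added after their values were seen. Alternatives were a pseudocount of 0.1, other filters (none, 5 TPM), median-of-ratios scaling, a replicate block, no trend, a single tissue, other p-value thresholds and leaving out each library. Counts without triplets that share a gene and without triads under 1 TPM in leaf, and a replicate block within each tissue, were added after seeing the data.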

Additional observations from a re-analysis of the deposited data

Results flagged for a closer look

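The leaf-high minus leaf-low response differed between axillary bud and shoot apex, by the interaction term in limma, in 12 of the triads named above. The values are the response in axillary bud minus that in shoot apex, on the log2 scale. It was higher in axillary bud in the triads of TraesCS4A02G280500 (4.86), TraesCS4A02G345700 (3.42), TraesCS4A02G194800 with TraesCS5D02G144800 (2.92) and with TraesCS4D02G118500 (2.67), TraesCS4A02G107000 (1.73) and TraesCS4A02G106900 (1.62). It was higher in shoot apex in the triads of TraesCS4A02G217300 (-2.19), TraesCS4A02G109000 (-1.78), TraesCS4A02G071700 (-1.60), TraesCS4A02G204800 (-1.32), TraesCS4A02G234700 with TraesCS5D02G080700 (-1.25) and TraesCS4A02G199700 with TraesCS5D02G133400 (-1.20). The adjusted p-values lay between 0.000243 and 0.0313. Most of these triads had been named for a called response in 1 of these tissues, and that response is part of the difference given here.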

How the results depend on the processing

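The number of split triads was 83, and it was 195 with a pseudocount of 0.1 (75 of the 83 among them), 52 when each homoeologue had to reach 5 TPM in a group, 94 after median-of-ratios scaling (71 of the 83 among them) and 82 to 92 without each leaf library in turn. The filter of 5 TPM keeps fewer triads by construction. With it, 11 in place of 17 split triads had an unequal response in axillary bud, 23 in place of 41 unequal levels in axillary bud and 28 in place of 46 in shoot apex, and the leaf-high copy fell short in 2 in place of 4 in axillary bud and 1 in place of 2 in shoot apex. The 3 calls of unequal response in shoot apex were 5 after median-of-ratios scaling and 1 to 2 without each shoot apex library. There, the 1 triad with the higher leaf-high response was 2 after that scaling and 0 without each library, and the 2 with the lower were 1 in a fit of shoot apex alone and 1 to 2 without each library. Without triplets that share a gene, chosen after seeing the data, unequal levels in axillary bud were called in 27. Without each axillary bud library in turn, unequal response was called in 15 to 19 triads, unequal levels in 41 to 42, the higher leaf-high response in 7 to 10, the lower in 4, and 52 to 69 genes in place of 67, and 43 to 45 triads had unequal levels and 16 to 22 genes were called in shoot apex. Over all alternatives, the named leaf-high minus leaf-low responses kept their call in 124 refits, lost it in 15 and turned their sign in none.

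The replicate block is reported once. Same-numbered libraries deviated together in shoot apex (r = 0.742 over genes, which are not independent replicates) but not in leaf (-0.0745) or axillary bud (0.00519), and no label says that the numbers mark a shared origin. Whether the numbers pair the shoot apex libraries is therefore uncertain. With the replicate block, unequal response was called in 17 split triads in axillary bud and 3 in shoot apex, unequal levels in 43 and 43, and 68 and 19 genes. With a replicate block within each tissue, chosen after seeing the data, unequal response was called in 16 and 2, unequal levels in 43 and 44, and 65 and 19 genes, and the lower leaf-high response in shoot apex in 1 in place of 2, since TraesCS4A02G107000 was not called (-1.57, adjusted p = 0.0633).

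With 2 libraries a group, a fit without a library leaves a lone library in its group, which is assumed to vary like the others. The list at hand covers chromosome 4A only, and TPM give no depth.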
